A study of Homo sapiens with 48 samples.

Results

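A set of 8266 broad H3K9me3 peaks of ASPC1 cells, of 63955 in the deposited list, was called in control-hairpin cells and not in ZNF274-hairpin cells, and was annotated as intronic or Intergenic. Its members are the peaks that the list assigns to shCTRL alone, with an annotation of intron or Intergenic, that overlap no gene named ZNF followed by a number. The annotation is 1 class per peak, so a member can still run over an exon or a start; such peaks are called non-exonic here. The control-only set holds 8754 peaks of every annotation, and 75 non-exonic ones were left out because they overlap such a zinc finger gene. The peak calls in the shZNF274 and shCTRL cells chose the members, so every value of the peak contrast given below is a description without a test. The same rule applied to peaks called only in shZNF274 cells gives 13425 peaks, and applied to peaks called in both gives 39196, named shared peaks here. Distances to a shared peak were measured to all 41136 peaks called in both, of any annotation and including those over zinc finger genes.

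ASPC1, CFPAC1 and Panc3.27 are established lines of pancreatic ductal adenocarcinoma. Chromatin was profiled by CUT&RUN in ASPC1 only, in cells with a hairpin against ZNF274 (shZNF274) or a control hairpin (shCTRL), all kept for 9 days in 1 µg/ml doxycycline, with antibodies against ZNF274, H3K9me3 or IgG in 3 samples each. Total RNA was sequenced in 30 libraries, 3 per group. The groups were ASPC1 and CFPAC1 cells with siZNF274 against siCTRL and with 5 µM azacitidine (AZA) against DMSO, and Panc3.27 cells with ZNF274 overexpression (OE) against empty vector. No azacitidine or overexpression sample has a peak profile here, and the sources do not say whether a hairpin line is 1 clone or a pool. The peak list and the RNA therefore come from different perturbations, hairpin for the peaks and small interfering RNA for the transcripts.

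H3K9me3, trimethylation of lysine 9 of histone H3, marks compact and largely silent chromatin. It is deposited by SETDB1 and the SUV39H enzymes, is read by HP1 proteins, and covers pericentromeric repeats, transposable elements and the clusters of zinc finger genes. ZNF274 is a KRAB zinc finger protein that binds DNA, best known at the 3′ ends of zinc finger genes, and recruits SETDB1 through the corepressor TRIM28. Azacitidine is a cytidine analog that traps DNA methyltransferases and lowers DNA methylation.

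The rule drops peaks of the promoter-TSS class, 125 of the shCTRL-only peaks, so the starts still inside a member are what that filter left. Of 27305 gene symbols with a promoter sequence in RefSeq (GRCh38.p14, 250 bases before to 50 after the start), 38 (0.139%) had the whole 300-base window inside a member, against 54 (0.198%) for the shZNF274-only peaks and 868 (3.18%) for the shared peaks. The windows were poor in CpG: the median count was 3 CpG in the members, 2.5 in the shZNF274-only peaks, 3 in the shared peaks and 14 over all promoters. Their median GC content was 44.2% against 58.3% over all promoters. The letters TATAAA, searched on both strands, occurred in 10 of the 38 (26.3%) and in 11.95% of all promoters. Only 12 of the 38 symbols are in the RNA count table, and 5 of those are protein-coding. They are SLC26A9, a chloride and bicarbonate transporter of epithelia, GNGT1, a G protein gamma subunit of photoreceptors, OR2L13, an olfactory receptor, GPRIN2, and CTLA4, an inhibitory receptor of T cells.

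The windows of 3 of these genes and of a pair of uncharacterized loci whose members were also called lower in shZNF274 cells are shown in hg38, with each CG in capitals, because they span the range of CpG content among the members. SLC26A9 (chr1:205943407-205943706, minus strand) holds 6 CpG and 2 TATAAA matches, GNGT1 (chr7:93906317-93906616, plus strand) holds 2 CpG, and OR2L13 (chr1:247936927-247937226, plus strand) holds 24. The 2 TATAAA matches of SLC26A9 overlap, on opposite strands of the same stretch, tttataaa. LOC102724653 (chr22:22098657-22098956, minus strand) holds 3 CpG and LOC105373182 (chrX:40317791-40318090, plus strand) holds 2.
SLC26A9: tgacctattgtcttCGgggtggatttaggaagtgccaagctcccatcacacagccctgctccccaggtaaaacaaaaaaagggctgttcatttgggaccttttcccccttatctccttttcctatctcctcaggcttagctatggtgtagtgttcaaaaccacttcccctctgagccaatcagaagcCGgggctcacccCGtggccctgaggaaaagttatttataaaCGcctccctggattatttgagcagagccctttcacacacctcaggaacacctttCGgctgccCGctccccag
GNGT1: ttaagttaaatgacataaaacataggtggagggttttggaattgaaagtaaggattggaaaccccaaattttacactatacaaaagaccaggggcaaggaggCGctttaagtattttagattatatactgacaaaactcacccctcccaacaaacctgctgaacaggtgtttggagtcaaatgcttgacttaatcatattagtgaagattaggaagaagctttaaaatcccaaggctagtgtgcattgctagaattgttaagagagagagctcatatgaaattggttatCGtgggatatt
OR2L13: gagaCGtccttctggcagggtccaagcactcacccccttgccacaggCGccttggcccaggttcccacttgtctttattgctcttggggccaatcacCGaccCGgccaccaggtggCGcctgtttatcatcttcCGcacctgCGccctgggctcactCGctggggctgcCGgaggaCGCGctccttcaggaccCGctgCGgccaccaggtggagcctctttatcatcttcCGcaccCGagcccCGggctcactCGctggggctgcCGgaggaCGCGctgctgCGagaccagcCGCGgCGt
LOC102724653: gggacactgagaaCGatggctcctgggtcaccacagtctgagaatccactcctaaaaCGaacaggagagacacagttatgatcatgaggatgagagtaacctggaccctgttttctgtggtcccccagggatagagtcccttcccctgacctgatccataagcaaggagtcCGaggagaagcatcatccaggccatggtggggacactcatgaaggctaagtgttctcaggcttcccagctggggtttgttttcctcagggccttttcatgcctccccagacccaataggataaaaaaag
LOC105373182: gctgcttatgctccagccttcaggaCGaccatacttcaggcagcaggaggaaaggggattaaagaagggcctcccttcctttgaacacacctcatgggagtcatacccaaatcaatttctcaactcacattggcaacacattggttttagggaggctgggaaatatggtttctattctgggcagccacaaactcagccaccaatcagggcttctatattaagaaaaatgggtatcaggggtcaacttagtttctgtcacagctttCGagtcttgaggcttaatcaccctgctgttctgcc
The OR2L13 window differs from the other four by its dense CpG, and it alone lies above the median of 14 over all promoters.

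Members also contained 7 of 1562 annotated microRNA hairpins, against 4 in the shZNF274-only peaks and 135 in the shared peaks. Their mature forms are printed from RefSeq with the seed (bases 2 to 8), which pairs with target transcripts, in capitals, to show that the members do not hold a family with a common seed.
hsa-miR-4539: gCUGAACUgggcugagcugggc
hsa-miR-4507: cUGGGUUGggcugggcuggg
hsa-miR-4538: gAGCUUGGaugagcugggcuga
hsa-miR-520h: aCAAAGUGcuucccuuuagagu
hsa-miR-9986: uGUGAGGUugucaugccugc
hsa-miR-3118: uGUGACUGcauuaugaaaauucu
hsa-miR-4290: uGCCCUCCuuucuucccuc
The first 3 lie in a single 2657-base member on chromosome 14 (105856732 to 105859388), 74.1 kb from the nearest shared peak. hsa-miR-520h belongs to the large primate microRNA cluster on chromosome 19 and lies in a 4501-base member (53741667 to 53746167) that is 1.64 kb from a shared peak. hsa-miR-9986 lies in GPR39, hsa-miR-3118 in POTED and hsa-miR-4290 in its own host transcript MIR4290HG, the last in a member 124.7 kb from any shared peak. The microRNAs themselves were not measured.

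Members were short beside the shared peaks and about as long as their shZNF274-only counterparts. Their median width was 1827 bases (95% order-statistic interval 1794 to 1855), against 1783 bases (1758 to 1809) for the shZNF274-only peaks and 5126 bases (5086 to 5164) for the shared peaks. These intervals cover only the peaks of each list, which come from the same libraries. Member widths ran between 195 and 15470 bases, with the middle part between 1124 and 2880 bases, and 5% exceeded 5380 bases. Together the members covered 18.4 Mb, against 27.6 Mb for the shZNF274-only peaks and 364.2 Mb for the shared peaks. Introns held 3592 members (43.5%), with a median width of 1814 bases, and 4674 (56.5%) were Intergenic, with a median of 1834 bases. The intronic share was 46.6% among shZNF274-only and 44.5% among shared peaks.

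The widest member spanned 15470 bases in an intron of AFF2 (chromosome X, 148547753 to 148563222), a gene of transcription elongation known for the FRAXE fragile site, with a shared peak 1.63 kb beyond its end and another 70.2 kb before its start. The next widest were a 13067-base Intergenic member on chromosome 12 (20237646 to 20250712), which was 40.4 kb from a shared peak, and a 12622-base member in CTNNA2, a neuronal alpha catenin (chromosome 2, 80626394 to 80639015). On chromosome 16 a member of 12582 bases lay at 79898458 to 79911039, and on chromosome X one of 12436 bases lay at 143046405 to 143058840, 11.7 kb from SPANXN4, a sperm protein gene. The other five of the 10 widest spanned 12098 to 12416 bases, on chromosomes 7, 1, 2, 18 and 11. The widest member of each chromosome lay between 3484 and 15470 bases, so no chromosome held a member near the size of the longest shared blocks, which reached 1792131 bases.

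Most members sat near a shared peak, and so did most shZNF274-only peaks. The gap to the nearest shared peak had a median of 11.8 kb (interval 11.3 to 12.3) and ran from 4 bases to 1170 kb, against 12.3 kb (11.9 to 12.7) for the shZNF274-only peaks. Within 1 kb of a shared peak lay 907 members (11.0%), against 1007 shZNF274-only peaks (7.501%). Within 10 kb lay 3844 members (46.5%) and within 100 kb 7637 (92.4%), against 44.9% and 93.3% of the shZNF274-only peaks. Shared peaks flanked 1268 members (15.3%) within 10 kb on both sides, against 1397 shZNF274-only peaks (10.4%). Intergenic members lay closer, at a median of 8.83 kb (8.39 to 9.42), than intronic members, at 16.6 kb (15.5 to 17.6).

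Members nearest to a shared peak were the widest. Those within 1 kb of a shared peak had a median width of 2023 bases, those at 1 to 5 kb 1854.5, at 5 to 10 kb 1885, at 10 to 50 kb 1783 and at 50 to 100 kb 1728 bases, and the 629 members (7.61%) beyond 100 kb 1666 bases. The most remote members outside chromosome Y were on chromosome 3 and chromosome 9. A pair in NEK4, a kinase of the NIMA family, spanned 3068 bases at 52727966 to 52731033, 632.9 kb from a shared peak, and 3870 bases at 52731440 to 52735309, 628.6 kb away. One of 1182 bases in RFX3-AS1 (chromosome 9, 3582658 to 3583839) lay 611 kb away, and a pair on chromosome 3 at 59585360 to 59587703 and at 56715634 to 56716249 lay 597.6 and 569.2 kb away.

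The deposited list also carries the authors' differential call for shZNF274 against shCTRL, which uses the contrast that chose the members and supports nothing about them. In the authors' deposited table, 211 of 8251 members with a call were Down (2.56%), none was Up, 8040 were unchanged and 15 had no call. Over all 63916 peaks with a call, 0.64% were Down and 0.383% Up. Among shared peaks 87 were Down and 3 Up in the authors' deposited table, and among shZNF274-only peaks none was Down and 230 were Up (1.72%). The large majority of members were thus absent from the shZNF274 peak call without a called difference in signal. A peak score of 1000 in every peak of the list leaves no ranking of members by strength.

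Members called Down differed in place and size from the rest. Their median width was 2732 bases (2411 to 2989), against 1814 bases for members not called Down, and their median distance to a shared peak was 23.3 kb (17.8 to 29.8), against 11.6 kb. The Down share was 1.21% within 1 kb of a shared peak, 1.80% at 1 to 5 kb, 2.15% at 5 to 10 kb, 2.71% at 10 to 50 kb, 4.52% at 50 to 100 kb and 3.97% beyond. Introns held 127 Down members (3.54% of intronic members with a call) and Intergenic sequence 84 (1.80%). A gene in the count table overlapped 129 Down members (61.1%), against 43.3% of the others.

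The widest Down member was one of 8960 bases in LINC02864 (chromosome 18, 73218213 to 73227172), 141.9 kb from a shared peak. It was followed by 8005 bases in TRIO, a guanine nucleotide exchange factor (chromosome 5, 14249777 to 14257781), and a 7553-base Intergenic member on chromosome 13 (48966688 to 48974240). Other wide ones lay in MCC (7166 bases, chromosome 5), in FBXW7, the substrate receptor of a ubiquitin ligase (7162 bases, chromosome 4, 152467398 to 152474559, 179.7 kb from a shared peak), in SCLT1 (7044 bases, chromosome 4) and in DCN, the fibroblast proteoglycan decorin (6543 bases, chromosome 12, 91164540 to 91171082). The member in NEK4 at 52731440 was Down as well. Zinc finger genes, which the rule removed as hosts, were still near: 17 Down members (8.06%) lay within 100 kb of one, against 130 of all members (1.57%). Chromosome 19 held 6 Down members, among them one of 5682 bases (19859057 to 19864738) that lay 1.14 kb from ZNF253 and one of 1965 bases (52588477 to 52590441) 1.30 kb from ZNF701.

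Members were spread unevenly over chromosomes. The whole set held 0.616 members for each shZNF274-only peak. Chromosome 17 held 357 members against 274 shZNF274-only and 1052 shared peaks (ratio 1.30), chromosome 18 held 287 against 266 and 1187 (1.08), and chromosome X held 664 against 682 and 1885 (0.974). Chromosome Y had 55 members against 16 shZNF274-only and 109 shared peaks (3.44), with a median member width of 938 bases. Its window from 10 to 15 Mb alone held 41 members, 10 shZNF274-only and 84 shared peaks. Whether the reads placed on chromosome Y arose from it was not tested. At the low end were chromosome 11 with 354 members against 740 shZNF274-only peaks (0.478) and chromosome 6 (0.479), and 16 chromosomes lay under 0.7. In number, chromosome 2 led with 681 members (8.24%), followed by chromosome X with 664 (8.03%) and chromosome 1 with 576.

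Gene-free sequence held a large share of members on a few chromosomes. The longest stretch without a gene of the count table was taken on each chromosome, 215.6 Mb in all; on most chromosomes it spans or adjoins the centromere. These stretches held 758 members (9.17%), against 215 shZNF274-only peaks (1.60%) and 3058 shared peaks (7.80%), a ratio of 3.53 inside and 0.568 outside. On chromosome 17 the stretch from 22692619 to 26989188 held 199 members, 49 shZNF274-only and 357 shared peaks, or 46.3 members per Mb, and the ratio on the rest of the chromosome was 0.702. Chromosome 18 (15189761 to 20946905) held 113 members against 12 shZNF274-only and 474 shared peaks, and 0.685 remained outside. On chromosome 15, bases 1 to 20128744 held 149 members against 40 shZNF274-only peaks, with 0.546 outside, and on chromosome 3 the stretch from 89482135 to 93873050 held 97 against 34, with 0.527 outside. Chromosomes X and Y kept 0.925 and 3.25 outside their stretches. Chromosomes 19 and 21 held no member in theirs, beside 5 and 0 shared peaks. Density was 0.0539 members per Mb on chromosome 14, 0.110 on 13 and 0.440 on 9, where 8, 25 and 32 shared peaks lay. How much of each stretch can hold a peak call was not examined, so these densities do not compare chromosomes. On chromosomes 2, 6 and 8 the shZNF274-only peaks there outnumbered members, with 4 members against 5, 3 against 4 and 1 against 7.

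Members in these stretches were shorter and closer to shared peaks. Their median width was 1487.5 bases (1379 to 1653), against 1849 bases (1819 to 1881) for the other 7508 members, and the median distance to a shared peak was 1.67 kb (1.49 to 1.92), against 14.0 kb (13.3 to 14.7). The shZNF274-only peaks there were shorter still, at 1070 bases, and the shared peaks longer, at 5982.5 bases. Only 6 of the 758 were Down in the authors' deposited table.

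In windows of 5 Mb the members had a median of 12, with 8 of 609 windows empty and 93 holding more members than shZNF274-only peaks. The 12 fullest windows held 928 members (11.2%). Besides the gene-free stretches they included the tip of the short arm of chromosome X, where the first 5 Mb held 61 members against 28 shZNF274-only and 47 shared peaks and the next window held 51 against 26 and 26. Most members stood alone: 5544 (67.1%) had a peak of another kind, or none, as neighbour on both sides in the list. Another 913 pairs were consecutive in the list, and 265 runs of 3 or more held 896 members. The longest run was 8 members over 103.8 kb of chromosome X (4856176 to 4959955), and 7 members in a row lay over 58.9 kb of the chromosome 15 gene-free stretch (18844428 to 18903345).

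Members in a gene lay mostly in large ones, and more members lay in none. A gene of the count table overlapped 3615 members (43.7%), and the 4651 in no gene had the nearest one at a median of 63.9 kb (60.0 to 67.9). The 2582 host genes, 7.01% of 36843, comprised 1512 protein-coding and 1070 long non-coding genes. Their median span was 158.6 kb, against 132.5 kb for hosts of shZNF274-only peaks, 85.2 kb for hosts of shared peaks and 15.6 kb over all genes. The share of genes that host a member was 0.770% under 20 kb, 6.52% at 20 to 100 kb, 29.97% at 100 to 500 kb and 72.6% above 500 kb. Most hosts, 1836, had 1 member and 85 had 5 or more. A shared peak overlapped 1933 hosts too (74.9%), and a shZNF274-only peak overlapped 1261 (48.8%).

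The hosts with the most members were large genes, with spans of 500 to 2305 kb. NRG3, an ERBB4 ligand, held 20 members over 65.4 kb, against 16 shZNF274-only and 22 shared peaks. AGBL4, a carboxypeptidase of tubulin, held 19 against 6 and 23, and CNTNAP2, a neurexin-like adhesion protein, held 16 against 29 and 64. CSMD1 held 14, LRRC4C, a netrin-G ligand, 12, and GPC6, a glypican, 11 against 2 shZNF274-only and 9 shared peaks. CDH18, MACROD2 and RP11-485I9.1 held 10 each, and AFF2 and MALRD1 held 9 each. MACROD2 stood at the other end of the balance, with 37 shZNF274-only and 69 shared peaks. Members per Mb of gene were 17.99 in NRG3, 12.7 in AGBL4 and 4.86 in MACROD2.

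Gene lists differed widely in their share of hosts and in the span of their genes. Median spans were 1337 kb for the neural adhesion and fragile-site list, 140.1 kb for cadherins and 98.8 kb for protocadherins. They were 49.2 kb for the H3K9me3 machinery, 33.9 kb for solute carriers, 2.58 kb for olfactory receptors and 1.18 kb for keratins. Over all genes the median was 15.6 kb, and the part of span in the shares was not tested. Of 40 large neural adhesion and fragile-site genes 35 hosted a member, but 37 hosted a shZNF274-only peak and all 40 a shared peak. Over all genes 7.01% hosted a member, 10.5% a shZNF274-only peak and 21.9% a shared peak. Among classical and related cadherins 10 of 23 were hosts (CDH18, CDH13, CDH8, CDH12, CDH11 and CDH17 leading), against 7 for shZNF274-only and 13 for shared peaks. The other families were taken by symbol and their counts include antisense RNAs of family genes. GABA, glutamate and glycine receptors had 18 hosts of 60 (24 and 31 for the other peak sets, in the same order), potassium, sodium and calcium channels 29 of 170 (41 and 63), and phosphodiesterases 9 of 34 (11 and 17), with PDE11A counted under 2 identifiers. Symbols starting as solute carriers had 36 hosts of 408 (61 and 104), germline genes 7 of 106 (4 and 13), olfactory receptors 5 of 389 (12 and 46) and keratins with their associated proteins 2 of 155 (5 and 40). Protocadherins went the other way: 1 of 70, PCDH15, hosted a member, and 38 of 70 hosted a shZNF274-only peak; the clustered protocadherin genes overlap each other, so 1 peak can count for many. The H3K9me3 machinery list (33 genes of writers, erasers, readers and corepressors) and the 12 epithelial markers had 0 hosts, beside 7.01% over all genes. A median of 1.502% of a host was covered, and 12 hosts were covered by 50% or more, among them WFDC2, a secreted protease inhibitor (51.8%).

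The RNA libraries held 31415743 to 43383141 counts. Levels are given as CPM, counts per 1000000 counts in tested genes, scaled by TMM within a line. Comparisons use edgeR's quasi-likelihood test over all genes tested in the line with Benjamini-Hochberg adjustment at 0.05. The labels do not spell out that the 3 samples of a group were separate cultures, so a p-value sets a difference against the spread of these samples, which may be technical. In bulk RNA, fewer cells of a type and less RNA per cell cannot be told apart. ZNF274 itself did not differ by the test in the libraries labelled siZNF274, at 16.6, 19.2 and 22.4 CPM against 15.8, 16.3 and 20.6 CPM in siCTRL of ASPC1 (adjusted p = 0.305), nor in CFPAC1, at 32.8 ± 1.47 against 34.4 ± 1.12 CPM (SD, n = 3 each; adjusted p = 0.423, edgeR). It was 2.76-fold higher with OE, at 136 ± 2.90 against 49.1 ± 1.54 CPM (adjusted p = 4.17e-11). Directions below for siZNF274 are those of the libraries so labelled. In ASPC1, 11 of 12 epithelial markers exceeded 1 CPM in every group. Summed epithelial markers were at 7582 to 8331 CPM in siZNF274 against 10313 to 11657 in siCTRL, and 9934 to 10244 in AZA against 14217.5 to 15930 in DMSO. Leukocyte markers summed to 96.2 to 106.4 CPM in siZNF274 against 164.4 to 168.3 in siCTRL, and to 88.4 to 112.2 in AZA against 267 to 283.1 in DMSO, with CD3E or NKG7 at 0 in each group. Endothelial markers summed to 1.38 to 1.59 CPM in siZNF274 against 0.840 to 1.03 in siCTRL, and to 3.903 to 4.38 in AZA against 0.537 to 0.746 in DMSO, and fibroblast markers lay between 97.7 and 146.2 CPM in all 4 groups. Of 8 leukocyte markers, 1 had a mean above 1 CPM in siCTRL and in DMSO, and 2 in siZNF274 and in AZA. Of 8 fibroblast markers, 1 did in each group, so these sums rest on few genes. The part of these markers in the results below was not tested.

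Host genes were mostly silent or low, and those tested changed in both directions. In ASPC1, 1017 of the 2582 hosts (39.4%) had enough counts to be tested, against 43.9% of all genes, so the counts concern the expressed part of the hosts. In the libraries labelled siZNF274, 214 hosts rose (21.0%; 21.5% over all tested genes) and 289 fell (28.4%; 24.2%). The median log2 fold change of the hosts was -0.04, and that of all tested genes was 0.00. Hosts of shared peaks without a member stood at 19.4% up and 26.0% down. By gene span, 27.04% of hosts fell at 20 to 100 kb, against 28.8% of other tested genes. The shares were 29.1% against 30.7% at 100 to 500 kb and 29.9% against 32.4% above 500 kb. Under 20 kb 3 of 19 hosts fell, and 1290 of 7173 others. Within each span class the share of hosts that fell was thus not above that of other genes. The part of span in these counts was not tested.

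Azacitidine lowered more hosts than it raised. In ASPC1 153 rose (15.0%; 17.2% over all tested genes) and 298 fell (29.3%; 18.6%), with a median log2 fold change of -0.09. Hosts of shared peaks without a member fell in 26.1%. Among tested genes spanning 100 to 500 kb, 199 of 621 hosts fell (32.0%), as did 566 of 1866 other genes (30.3%), and above 500 kb 30 of 107 hosts (28.0%) and 12 of 34 others (35.3%). In CFPAC1, for which no peaks are used here, AZA raised 99 of 1281 tested hosts (7.73%; 12.2% over all tested genes) and lowered 356 (27.8%; 13.5%). At 100 to 500 kb 243 of 767 hosts fell (31.7%), against 678 of 2192 others (30.9%). Above 500 kb 71 of 171 hosts fell (41.5%) against 31 of 68 others (45.6%), and at 20 to 100 kb 13.3% against 13.1%; in ASPC1 that class stood at 23.3% against 21.1%. Tested hosts had a median span of 170.3 kb in ASPC1 against 22.3 kb for other tested genes, and the part of span in the counts was not tested.

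In the other comparisons a larger share of hosts rose, and a smaller share fell, than over all tested genes. In CFPAC1, 191 hosts rose (14.9%; 11.6% over all tested genes) and 161 fell (12.6%; 13.2%) in the libraries labelled siZNF274. With OE in Panc3.27, 292 of 1172 tested hosts rose (24.9%; 19.8% over all tested genes) and 168 fell (14.3%; 17.1%), with a median log2 fold change of 0.06 against 0.01.

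**Figure D1:**
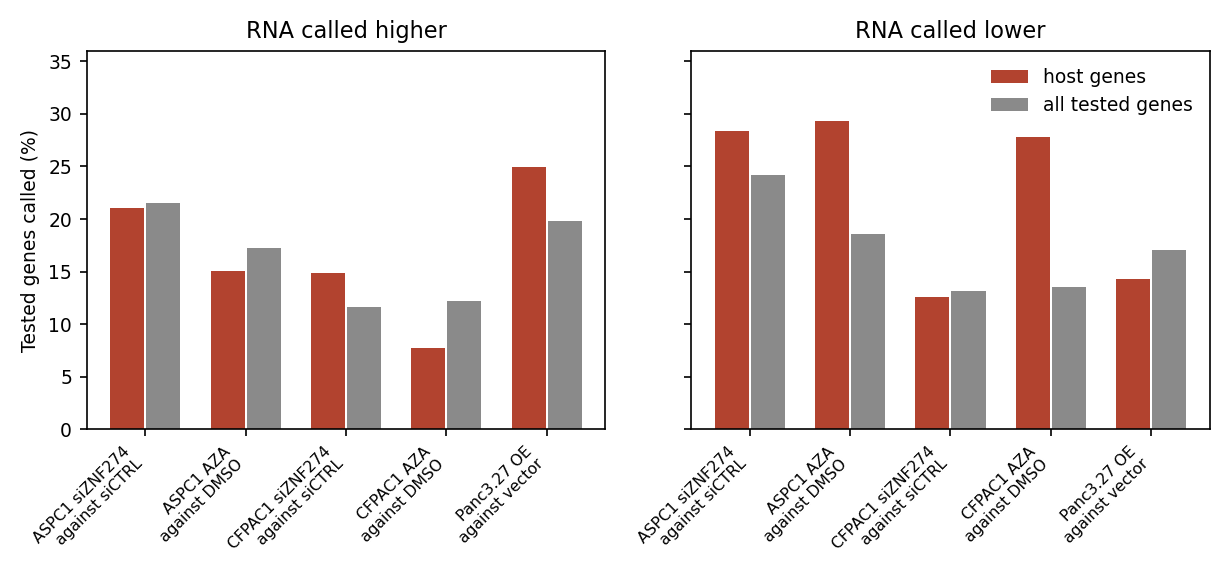
Share of tested host genes called higher or lower in each of the 5 RNA comparisons (edgeR, adjusted p under 0.05), beside the share over all tested genes. The bars of hosts called lower stand out for AZA, at 29.3% against 18.6% in ASPC1 and 27.8% against 13.5% in CFPAC1.

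In ASPC1 labelled siZNF274, the host genes that rose most combined very low and moderate levels. BACH2, a transcriptional repressor of lymphoid cells with a member of 1247 bases, had 0.214, 0.159 and 0.415 CPM in siZNF274 and 0.0579, 0.0258 and 0 CPM in siCTRL (adjusted p = 0.00309, edgeR). That is 28 counts against 3, a ratio of 9.24 with a 95% counting interval of 2.85 to 47.5. SHC2, a signalling adaptor of neurons, had 17.0, 15.2 and 17.7 CPM in siZNF274, against 2.66, 2.76 and 4.65 CPM in siCTRL. All 3 siZNF274 libraries lay well above, a log2 fold change of 2.33 ± 0.15 (SE; adjusted p = 7.74e-09, 5.01-fold). Its member is short, 447 bases in an intron at 444102 to 444548 of chromosome 19. C20orf194 had 1.44, 1.82 and 1.35 CPM, against 0.203, 0.541 and 0.229 CPM in siCTRL (4.56-fold higher, adjusted p = 3.51e-05). PKP1, a plakophilin of desmosomes, rose 3.70-fold (adjusted p = 0.00168), and the antisense transcript CCR5AS 3.20-fold (adjusted p = 0.000365). ANKRD30BL, which holds 4 members, was called higher (adjusted p = 0.0231) but not without siCTRL 1 (0.0669), siZNF274 2 (0.0841) or siZNF274 3 (0.0559).

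Among those that fell most, ARHGEF38, a guanine nucleotide exchange factor, had 1.04, 0.988 and 0.995 CPM in siZNF274, against 5.33, 3.995 and 3.44 CPM in siCTRL. The groups did not overlap, with a log2 fold change of -2.07 ± 0.20 (adjusted p = 4.97e-07). CYFIP2, a subunit of the WAVE actin complex, had 0, 0.0956 and 0.0553 CPM against 0.290, 0.284 and 0.426 CPM (6.49-fold lower, adjusted p = 0.00194). SMIM24 was 5.86-fold lower (adjusted p = 7.91e-05) and NPSR1-AS1, with 3 members, 4.83-fold lower (adjusted p = 0.00042). PDGFRL was lower by a log2 of -2.66 (adjusted p = 0.00844), where siCTRL 1 stood at 0.956 CPM and the other 2 siCTRL libraries at 0.284 and 0.262, and without siCTRL 1 the adjusted p was 0.0637. The sources name no strand setting for the counting, so reads of antisense genes such as CCR5AS and NPSR1-AS1 and of their partners may be mixed.

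SLC26A9, whose promoter is printed above, was also among the 6 hosts that fell most in the libraries labelled siZNF274 of ASPC1. The member spans 3941 bases (chromosome 1, 205942965 to 205946905), covers the promoter window and lies 37.4 kb from a shared peak; the authors' deposited table does not call it Down. SLC26A9 had 0.241, 0.191 and 0.249 CPM in ASPC1 siZNF274, against 1.19, 1.29 and 0.94998 CPM in siCTRL. All siZNF274 libraries were below all siCTRL libraries, with a log2 fold change of -2.31 ± 0.29 (adjusted p = 9.11e-06). CFPAC1 expressed it at far higher levels, with 31.6, 44.6 and 37.5 CPM in siZNF274 against 50.1, 70.7 and 83.8 CPM in siCTRL (log2 -0.85 ± 0.15, adjusted p = 0.000682). Under AZA it had 0.258, 0.390 and 0.387 CPM against 0.460, 0.338 and 0.426 CPM with DMSO in ASPC1 (adjusted p = 0.589). In CFPAC1 the AZA libraries held 32.2, 35.6 and 34.2 CPM against 25.5, 26.4 and 19.96 CPM with DMSO (1.42-fold higher, adjusted p = 0.0257). With OE it rose 1.87-fold in Panc3.27, at 43.2, 41.3 and 43.0 CPM against 23.3, 22.2 and 22.8 CPM with vector (log2 0.90 ± 0.05, adjusted p = 2.55e-08). SLC26A9 was thus lower than siCTRL in both lines labelled siZNF274, where ZNF274 itself did not differ by the test, and higher with ZNF274 overexpression. The siCTRL libraries themselves lay above the DMSO libraries in both lines. The siZNF274 libraries lay above DMSO in CFPAC1 and below DMSO in ASPC1. The part of the siCTRL level in these differences was not tested.

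**Figure D2:**
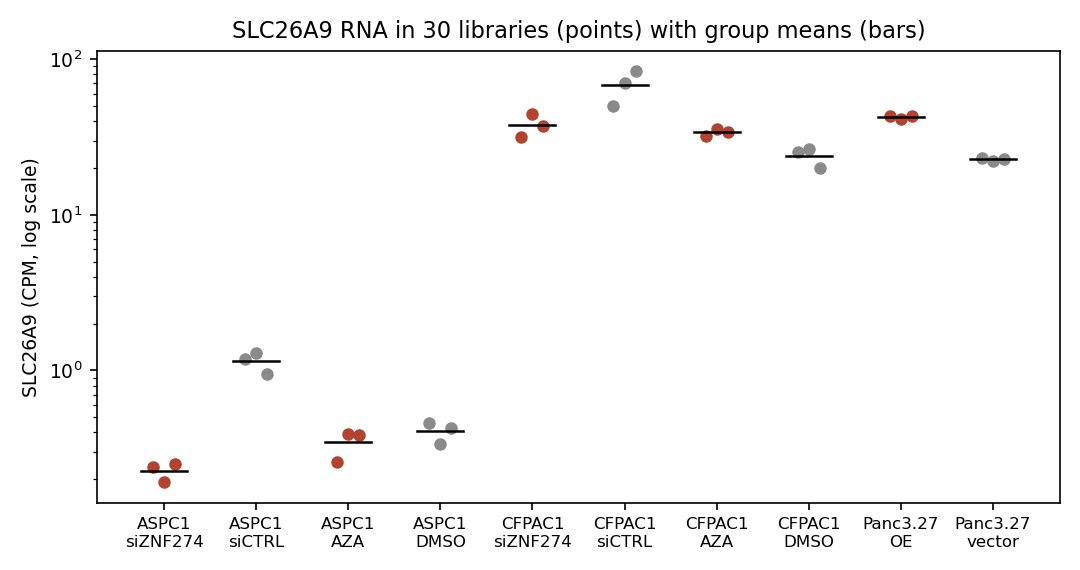
SLC26A9 in each RNA library (points, CPM on a log axis; bars are group means), grouped by line with siZNF274, AZA or OE left of its control. In ASPC1 the siZNF274 libraries (0.191 to 0.249 CPM) lie below siCTRL (0.94998 to 1.29), and in Panc3.27 the OE libraries (41.3 to 43.2) lie above vector (22.2 to 23.3).

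GNGT1, the second gene with a printed start in a member, holds 7 members in all. The counted gene spans 93591573 to 93911265 of chromosome 7 and so begins far before the printed window. Its counts need not describe a transcript from that window. In ASPC1 siZNF274 it had 1.74, 1.91 and 1.80 CPM, against 2.37, 2.14 and 2.23 CPM in siCTRL, a difference that missed the threshold (adjusted p = 0.109). In CFPAC1 it rose with siZNF274 at very low levels, 0.523, 0.214 and 0.288 CPM against 0.102, 0.0234 and 0.0265 CPM in siCTRL (adjusted p = 0.0145), and the call was lost without siCTRL 2 (0.0684) or siZNF274 1 (0.0652). It fell with OE, at 2.37, 2.64 and 2.56 CPM against 3.41, 3.11 and 3.63 CPM with vector (log2 -0.42, adjusted p = 0.0274). OR2L13 was listed at 0 in every library. The counted gene spans 248095184 to 248101103 of chromosome 1 and overlaps no member, so these counts need not describe a transcript from the printed window. The counted gene of GPRIN2 overlaps no member either.

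TP63, the basal-lineage transcription factor, holds a pair of members on chromosome 3 (189842523 to 189844774 and 189854743 to 189855735). It had 0.0826, 0.119 and 0.192 CPM in CFPAC1 siZNF274, against 0.457, 0.351 and 0.450 CPM in siCTRL (log2 -1.63, adjusted p = 0.00947). In ASPC1 it had 0.294, 0.191 and 0.359 CPM in siZNF274, against 0.840, 0.954 and 0.622 CPM in siCTRL (-1.50 ± 0.45, adjusted p = 0.0126). Panc3.27 expressed TP63 strongly, with 782, 777 and 724 CPM under OE against 482, 437 and 421 CPM with vector (0.77 ± 0.06, adjusted p = 2.58e-07). In each of these comparisons the libraries of the groups did not overlap. Under AZA it did not pass the test in either line (adjusted p = 0.0962 in ASPC1 and 0.0873 in CFPAC1).

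Azacitidine in ASPC1 raised hosts that were near zero with DMSO. PHGDH, the first enzyme of serine synthesis, had 0.801, 0.989 and 1.29 CPM with AZA and was listed at 0 in all 3 DMSO libraries, so it was at least 12.8-fold higher against a floor of 3 counts per library (adjusted p = 5.43e-07). RAB3B, a GTPase of regulated secretion, had 1.66, 1.85 and 1.55 CPM against 0.153, 0.113 and 0.107 CPM with DMSO (log2 3.72 ± 0.32, adjusted p = 2.35e-07). TUSC3, an oligosaccharyltransferase subunit with 3 members, had 54 counts over the AZA libraries against 2 over DMSO (ratio 27.01, counting interval 7.12 to 228.7, adjusted p = 0.000137). RGS17 was 9.41-fold higher (adjusted p = 0.000547), RP11-206M11.7 7.84-fold (adjusted p = 0.00474) and TWIST2, a factor of mesenchymal cells, 7.48-fold (adjusted p = 0.00132).

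The hosts that AZA lowered most in ASPC1 were expressed at higher levels. COL28A1, a collagen, had 1.32, 0.963 and 1.21 CPM, against 6.42, 6.96 and 6.05 CPM with DMSO (log2 -2.48 ± 0.14, adjusted p = 3.27e-09). ARHGEF38 had 1.46, 0.859 and 1.24 CPM, against 5.55, 5.63 and 5.04 CPM with DMSO (-2.19 ± 0.19, adjusted p = 2.01e-07), so it was low both in siZNF274 and in AZA libraries of this line. SLC7A9, an amino acid transporter subunit, had 0.200, 0.182 and 0.181 CPM, against 0.920, 1.13 and 1.49 CPM with DMSO (6.19-fold lower, adjusted p = 5.70e-06), and it fell 3.08-fold with siZNF274 too (adjusted p = 2.67e-05). ATP10B, a lipid flippase, was 3.51-fold lower with AZA (adjusted p = 0.000569) and RERGL 5.30-fold lower (adjusted p = 0.00297). AC007879.2 was called lower (adjusted p = 0.0148) but not without AZA 2 (0.0714) or DMSO 3 (0.0884).

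In CFPAC1 labelled siZNF274, GPR141, an orphan receptor, had 4.76, 4.88 and 5.21 CPM, against 15.1, 12.4 and 10.2 CPM in siCTRL (log2 -1.34 ± 0.13, adjusted p = 2.00e-06). CAPN8, a calpain of the gastrointestinal tract, was 2.47-fold lower (adjusted p = 8.43e-05) and was 2.15-fold lower in ASPC1 siZNF274 as well (adjusted p = 0.000507). NWD2 rose 3.36-fold (adjusted p = 0.00567). AC002451.3 was called higher (adjusted p = 0.0482), a call that DESeq2 did not make (0.0554) and that was lost in 5 of the 6 fits leaving out a library of these groups (0.0599 to 0.196). SHC2 rose in this line too, at 11.0, 13.2 and 11.5 CPM against 4.21, 4.96 and 5.88 CPM in siCTRL (2.38-fold, adjusted p = 4.02e-06).

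AZA in CFPAC1 raised EVC, a protein of the primary cilium, to 1.58, 1.07 and 1.60 CPM, against 0.0532, 0.0513 and 0.265 CPM with DMSO (log2 3.50 ± 0.43, adjusted p = 2.12e-05). SDK2, a synaptic adhesion protein whose member (chromosome 17, 73601556 to 73605468) was Down in the authors' deposited table, had 0.595, 0.629 and 0.461 CPM against 0.0532, 0 and 0.106 CPM (adjusted p = 0.00142). CCDC73 had 37 counts against 2 (ratio 16.5, counting interval 4.27 to 141.6, adjusted p = 0.000915). LUZP2, with 5 members, was 3.74-fold lower (adjusted p = 0.000217), and DKK2, a Wnt modulator, 3.26-fold lower (adjusted p = 0.00651). CLVS1 was called lower (adjusted p = 0.0399), and 5 fits that each left out 1 library lost the call (0.062 to 0.158).

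With ZNF274 overexpression in Panc3.27, the long non-coding RP11-14A10.1 had 83.0, 73.3 and 83.3 CPM, against 16.7, 17.7 and 16.3 CPM with vector (log2 2.24 ± 0.06, adjusted p = 2.44e-11). ANKRD30BL had 0.967, 0.566 and 0.853 CPM, against 0.0528, 0 and 0.121 CPM (12.9-fold higher, adjusted p = 0.000137). LINC02188 rose 4.37-fold (adjusted p = 0.000822) and LINC01060 fell 2.71-fold (adjusted p = 0.00244). FGD5, an exchange factor of endothelium, was called lower (adjusted p = 0.0147; 0.0648 without OE 1), and CHRNB4, a nicotinic receptor subunit, likewise (adjusted p = 0.0216; 0.0836 with DESeq2, 0.0585 without OE 2 and 0.0978 without OE 3).

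Hosts of Down members were expressed more often than hosts in general. Of 141 such genes 82 (58.2%) were tested in ASPC1. Protein-coding genes were 108 of the 141 (76.6%), against 58.6% of all hosts. In siZNF274 13 rose (15.9%; 21.5% over all tested genes) and 29 fell (35.4%; 24.2%), and with AZA 16 rose (19.5%; 17.2%) and 28 fell (34.1%; 18.6%). Their median span was 164.9 kb. Among tested genes of 100 to 500 kb that host no member, 30.7% fell in siZNF274 and 30.3% with AZA. The part of gene type and span in these shares was not tested. MAP4K4, a stress kinase, had 490 ± 5.97 CPM in siZNF274 against 339 ± 17.3 CPM in siCTRL (1.45-fold higher, adjusted p = 9.38e-07), and 555 ± 14.9 CPM with AZA against 313 ± 23.2 CPM with DMSO (1.77-fold higher, adjusted p = 1.20e-08; SD, n = 3 each). FBXW7 had 37.7 ± 0.891 CPM in siZNF274 against 28.4 ± 2.91 CPM in siCTRL (1.33-fold higher, adjusted p = 0.00013). Moving the other way, BCL11B, a zinc finger factor of T cells and neurons, had 20.3 ± 0.685 CPM in siZNF274 against 34.9 ± 2.81 CPM in siCTRL (1.72-fold lower, adjusted p = 1.23e-07). GMDS, an enzyme of GDP-fucose synthesis, was 1.61-fold lower in siZNF274 and 1.72-fold lower with AZA, and TNFRSF19 1.60-fold and 1.89-fold lower. NEK4, host of the most remote members outside chromosome Y, had 15.9 ± 0.429 CPM in siZNF274 against 18.4 ± 1.63 CPM in siCTRL, 1.16-fold lower (adjusted p = 0.0327), with adjusted p = 0.0828 to 0.198 when siCTRL 2, siZNF274 2 or siZNF274 3 was left out, 0.104 under upper quartile scaling, 0.0779 with a replicate block and 0.0677 in the fit of these groups alone. In CFPAC1 96 of these hosts were tested, with 17 up (17.7%; 11.6%) and 14 down (14.6%; 13.2%) in siZNF274 and 5 up (5.21%; 12.2%) and 33 down (34.4%; 13.5%) with AZA. In Panc3.27 92 were tested, with 24 up (26.1%; 19.8%) and 13 down (14.1%; 17.1%) under OE.

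In ASPC1, NRG3, AGBL4, LRRC4C, RP11-485I9.1 and AFF2, among the hosts with most members, were listed at 0 in every siZNF274 and siCTRL library. Elsewhere NRG3 had 18.2, 18.6 and 13.6 CPM in siZNF274 against 16.6, 14.7 and 11.8 CPM in siCTRL of CFPAC1, and AFF2 had 1.93, 1.72 and 1.65 CPM under OE against 1.53, 1.75 and 1.499 CPM with vector in Panc3.27. The libraries of the groups overlapped for both genes.

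All 33 genes of the H3K9me3 machinery list were tested. In ASPC1 siZNF274 3 rose (9.09%; 21.5% over all tested genes), namely CBX3, an HP1 protein, KDM4B, a demethylase, and MORC3, and 9 fell (27.3%; 24.2%), among them CBX5, another HP1 protein, ATF7IP, a SETDB1 cofactor, and TASOR2 and PPHLN1 of HUSH complexes. Several of these calls were lost under an alternative: CBX3 without siZNF274 1 (adjusted p = 0.0538) or siZNF274 2 (0.0502), MORC3 without siCTRL 2 (0.0535) or siZNF274 1 (0.0510), and ATF7IP under upper quartile scaling (0.0720) or without siZNF274 1 (0.0509). PPHLN1 was lost under upper quartile scaling (0.109) and without siCTRL 1 (0.117), siZNF274 1 (0.0542) or siZNF274 2 (0.0555). With AZA 8 rose (24.2%; 17.2%) and 2 fell (6.06%; 18.6%), and UHRF1, which guides maintenance DNA methylation, had 84.3 ± 4.55 CPM against 51.8 ± 2.50 CPM with DMSO (1.63-fold higher). In CFPAC1 siZNF274 none rose (11.6% over all tested genes) and 7 fell (21.2%; 13.2%), and with AZA 3 rose (9.09%; 12.2%) and 11 fell (33.3%; 13.5%). With OE 4 rose (12.1%; 19.8%), ZNF274 itself among them, and 15 fell (45.5%; 17.1%). Leaving out 1 library at a time gave 8 to 14 changed genes in ASPC1 siZNF274 and 6 to 12 with AZA, the lowest without AZA 2.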

How the data were processed

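The authors' deposited H3K9me3 peak list (hg38) and RNA count table were used. Per the submitters' processing notes, CUT&RUN used Bowtie2, MACS2, HOMER, featureCounts and edgeR, and RNA reads were aligned with STAR 2.7.10b; the notes name neither the RNA counting program nor whether peak calling pooled the samples. The deposited score of each peak is the authors' and was not used for ranking. The deposited RNA values are whole-number counts per gene; libraries held 31415743 to 43383141 counts. Members and gene lists were chosen with earlier results of these data known. Peak coordinates were given 1-based starts, and a host gene overlaps a member by at least 1 base. RNA was tested with edgeR 4.0.16 (TMM, filterByExpr, quasi-likelihood test, R 4.3.3) per line over 12, 12 and 6 libraries, with Benjamini-Hochberg adjustment at 0.05; the contrast between lines was fitted over 24 libraries. CPM are TMM-scaled counts per 1000000. The code was tested on simulated data. Named regions are the 10 widest and 5 most remote members outside chromosome Y and the widest of each chromosome; named host genes are the 12 with most members and, among called genes whose groups do not overlap, the largest changes (6 each way in ASPC1, 3 each way elsewhere). Genes of Down members, and the genes with a promoter in a member, were chosen after their values were seen. Counting intervals are exact at 95% and cover counting error only. No 2 libraries of a group held identical counts. Alternatives were DESeq2 1.42.0, upper quartile scaling, no filter, a replicate block, each library left out, and other definitions of members and hosts. One host gene and one marker gene are not reported here.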

Additional observations from a re-analysis of the deposited data

Results flagged for a closer look

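For the host genes named in a comparison of ASPC1, or of CFPAC1, the effect in ASPC1 minus that in CFPAC1 was tested over 24 libraries (edgeR, adjusted over all genes), and 17 differences on the log2 scale passed. In the libraries labelled siZNF274 the effect was more positive in ASPC1 by 1.06 for SHC2, 1.54 for C20orf194 and 1.92 for PKP1. SHC2 and C20orf194 rose in both lines, and PKP1 had 4.77 ± 0.622 CPM in siZNF274 against 4.97 ± 0.132 CPM in siCTRL of CFPAC1 (SD, n = 3 each). The effect was more negative in ASPC1 for CYFIP2 (-2.54), PDGFRL (-2.94), SMIM24 (-1.96), SLC26A9 (-1.49), NPSR1-AS1 (-2.11), ARHGEF38 (-1.84) and GNGT1 (-2.99). SLC26A9 fell in both lines, and GNGT1 passed the test in CFPAC1 alone, where 2 of its 6 libraries each decide the call. CYFIP2 stood at 15.7 ± 0.970 CPM in siZNF274 against 17.8 ± 0.766 CPM in siCTRL of CFPAC1, far above its level in ASPC1.

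With AZA the effect was more positive in ASPC1 by 4.27 for TUSC3, 4.32 for RAB3B, 3.43 for RGS17 and 2.56 for TWIST2. These genes were near 0 in ASPC1 with DMSO, and RAB3B had 38.5 ± 1.98 CPM with AZA against 58.4 ± 4.44 CPM with DMSO in CFPAC1, where it fell 1.52-fold (adjusted p = 2.78e-05, edgeR). For PHGDH the fitted difference was 8.03, which is no bound because all ASPC1 DMSO libraries are at 0. PHGDH had 57.6 ± 2.03 CPM with AZA against 46.0 ± 2.05 CPM with DMSO in CFPAC1 (1.25-fold higher, adjusted p = 0.0103). The effect was more negative in ASPC1 by -2.49 for COL28A1 and by -2.27 for ARHGEF38.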

How the results depend on the processing

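Of the alternative values of the main results, 88 stayed within the interval or within 1.5 times the main count and 15 moved. Fits that left out 1 library are not in these numbers. Keeping only the members called Down by the authors leaves 211 members, with a median width of 2732 bases and a median distance of 23.3 kb. The distance was 14.0 kb without the longest gene-free stretches, an alternative chosen after seeing the data, and 12.4 kb to shared intron or Intergenic peaks alone. Restricting hosts to genes without a shared peak, a smaller set by construction, gave for higher and lower calls 60 and 90 in ASPC1 siZNF274, 37 and 81 in ASPC1 AZA, 46 and 47 in CFPAC1 siZNF274, 31 and 71 in CFPAC1 AZA, and 73 and 53 with OE. Without 1 library at a time the counts ranged from 188 to 221 and 249 to 282 in ASPC1 siZNF274, 127 to 142 and 237 to 295 in ASPC1 AZA, 139 to 200 and 114 to 162 in CFPAC1 siZNF274, 69 to 91 and 279 to 367 in CFPAC1 AZA, and 209 to 279 and 130 to 194 with OE. Machinery calls ranged from 8 to 14 in ASPC1 siZNF274 and from 6 to 12 in ASPC1 AZA. Replicate numbers do not pair the samples by the labels, and in no comparison did every same-numbered pair correlate above 0.1; in ASPC1 siZNF274 the correlations were 0.0876, 0.0648 and 0.144, each library correlating best with its own number. With the number as a replicate block the calls were 201 and 241, 179 and 319, 206 and 172, 94 and 333, and 286 and 171 in the same order, and machinery calls 11 and 15. Upper quartile scaling gave 261 and 240, 176 and 250, 213 and 147, 122 and 296, and 287 and 183. Peak medians rest on 1 list, and genes that filterByExpr removed for low counts were not tested in the main fits.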
